A study of Drosophila melanogaster with 6 samples.

Results

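Cuticle protein genes were examined in RNA from the body wall of wandering third-instar Drosophila melanogaster larvae. The members were the genes of the deposited table whose symbol begins with Lcp or Cpr followed by a digit, with Ccp84A or with Twdl. This took 120 of the 17807 genes, made up of 17 Lcp, 70 Cpr, 26 Twdl and 7 Ccp84A genes. The rule itself read names only, but it was chosen with earlier results of these data known. The libraries came from 3 pools of larvae of genotype Dmef2-Gal4>UAS-madRNAi (Mad knockdown) and 3 pools of genotype Dmef2-Gal4>UAS-mCherryRNAi (control knockdown). Each pool held the muscle-enriched lysates of 6 to 10 larvae, per the labels. Both groups therefore carried the Dmef2-Gal4 driver, which acts in muscle, and a hairpin transgene, against Mad in one group and against a fluorescent protein foreign to the fly in the other. Mad is the transcription factor through which bone morphogenetic protein signals act in the nucleus. Within a group, values are given in the order of replicates 1, 2 and 3. The labels do not say whether the pools came from separate crosses, so p-values measure the spread between these pools.

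The insect cuticle is a layered coat of chitin fibres and structural proteins that the epidermis and other ectodermal linings secrete, and it is remade at each moult. Cpr proteins carry the Rebers and Riddiford sequence, which binds chitin, and the Lcp and Ccp84A proteins belong to the same class. Lcp stands for larval cuticle protein, and Lcp1 to Lcp4 were first described as the major cuticle proteins of the third larval instar. Twdl (Tweedle) proteins are a separate insect family of cuticle proteins, in which dominant mutations change the shape of the larval body. Most of these genes are switched on for a limited part of a stage, under the control of the moulting hormone ecdysone. They are known as products of epidermis and not of muscle fibres, and the driver of both hairpins acts in muscle.

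The labels and the marker genes were checked over the whole table. Recovered counts ran from 109301864 to 127220949 per Mad knockdown library and from 96639921 to 124490149 per control library. Mad had normalized counts of 4348, 5643 and 5053 in Mad knockdown replicates 1, 2 and 3, against 7533, 7658 and 7009.7 in control knockdown replicates 1, 2 and 3, a log2 fold change of -0.57 (standard error 0.102) with an adjusted p of 0.044 in limma, and it was called in 10 of 18 alternatives, with adjusted p-values up to 0.143. All 14 muscle markers were tested and none was at 0. All 14 had a negative log2 fold change, with a median of -0.80. Of them 3 (Act87E, Prm and Tm2) were called, all lower, where 1.57% of all tested genes were called lower. Each of the 3 lost the call in most fits that left out 1 library. The summed normalized count of the 14 muscle markers ran from 1780868 to 2488093 in Mad knockdown libraries, against 3541769 to 4574764 in control libraries. The groups did not overlap in that sum. All 14 epidermis markers were also tested, none was called, and their sum ran from 778148 to 1861859 in Mad knockdown libraries, against 994914 to 1662604 in control libraries. Most of that sum came from ple and Ddc in every library. The value of ple alone ran from 281292 to 1328851 in Mad knockdown libraries, against 559854 to 1121245 in control libraries. The sum therefore says little of the other epidermis markers. The median log2 fold change of the 14 was -0.034. In bulk samples fewer cells of a type and less RNA per cell cannot be told apart. The part of either marker list in the results on cuticle protein genes was not tested.

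Cuticle protein genes were among the most abundant transcripts of these libraries. Their share of all counts was 13.2%, 11.3% and 13.9% in Mad knockdown libraries, against 10.9%, 12.9% and 12.5% in control libraries. By mean normalized count over the 6 libraries, Lcp1 ranked 2 of the 17807 genes, Cpr49Ac 3, Lcp4 5, Lcp2 6 and Lcp3 10. These 5 genes held 92.9% of the signal of the 120 members. Per kilobase of exon, a scale that allows genes to be compared, Lcp1 stood highest, with a normalized count per kilobase of 4606988 in Mad knockdown libraries and 4281223 in control libraries. Lcp4 followed with 2366428 in Mad knockdown libraries and 2880929 in control libraries, and Cpr49Ac with 2134048 in Mad knockdown libraries and 1652996 in control libraries. Lcp2, Lcp3 and Cpr78E had overall means of 1417850.1, 1417547 and 1132987 per kilobase, and Lcp65Ab2 came next with 536049. In this order each gene's range over the 6 libraries overlapped that of the next, with a gap at 1 place: the libraries of Lcp1 lay between 3401059 and 4934427 per kilobase, those of Lcp4 between 1720502 and 3117492. Lcp65Ab2 in turn stood above Cpr67B, with libraries between 78781 and 123389 per kilobase. Cpr67B (99833), Lcp65Ab1 (79079) and Lcp9 (57525) overlapped again.

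**Figure D1:**
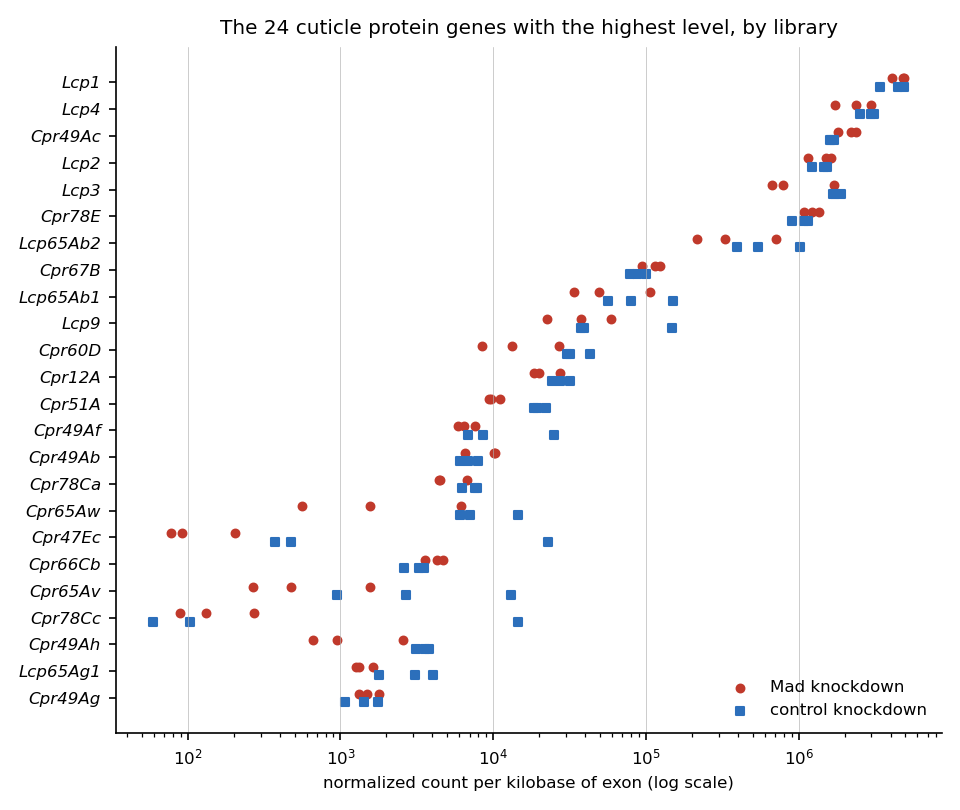
Normalized count per kilobase of exon (log axis) of the 24 members with the highest mean on that scale, with 1 point per library, red circles for Mad knockdown and blue squares for control knockdown. Lcp1, Lcp4 and Cpr49Ac lead, the libraries of Lcp1 lie close together, and a single control library stands far to the right for Cpr47Ec, Cpr65Av and Cpr78Cc.

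At the other end 5 members were at 0 in every library, and another 39 had a mean above 0 but no more than 10 normalized counts. The test was limited to genes with at least 10 normalized counts in at least 3 libraries, which 75 members passed and 45 did not. Of the 75, 59 reached 10 in every library, and 2, TwdlB and TwdlH, passed only through the control libraries, so that a lower value in Mad knockdown was set by the filter. The least abundant member tested was TwdlP, with a mean of 9.51, and the most abundant one left out was Cpr64Aa, with a mean of 13.2.

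In Mad knockdown 2 of the 75 tested cuticle protein genes were lower and none was higher at an adjusted p under 0.05, in limma with Benjamini-Hochberg adjustment over all 10348 tested genes. That is 2.67% of the members, beside 2.59% of all tested genes (1.57% lower and 1.02% higher), so the share called was near the background. The 2 genes were Cpr47Eb and Cpr51A. edgeR on recovered counts called the same 2 members, where it called 2.44% of all tested genes, 1.41% lower and 1.02% higher. DESeq2 gave an adjusted p for 67 members and called 10 of them, where it called 9.86% of all genes with one. Its 8 lower members, beside 6% of all genes, were Cpr47Eb, Cpr51A, Lcp65Ag1, Lcp65Ag3, Cpr65Au, Cpr66D, TwdlN and TwdlB, the last of which had passed the filter only through the control libraries. Its 2 higher members, beside 3.86% of all genes, were Cpr49Ac and Cpr65Ec. The spread between libraries of 1 group was wide for these genes: the median SD of the log2 values within groups was 0.628 for the members and 0.157 for all tested genes. Among genes with a mean of at least 50 these values were 0.555 for 57 members and 0.132 for all genes.

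The sizes and directions of the fold changes are given as a description. The median log2 fold change of the 75 members was -0.65, beside 0.0054 over all tested genes, and 49 members had a negative value, which is 65.3% where 48.9% of all tested genes had one. Of the 59 members present at 10 or more in every library, 41 had a negative value, with a median of -0.65. A fold change at or below -1 on the log2 scale was found for 23 members, 30.7%, where 4.05% of all tested genes had one, and one at or above 1 for 3 members, 4%, where 2.17% had one. At an unadjusted p under 0.05 limma placed 20 members lower, beside 10.7% of all tested genes, and 3 higher, beside 8.31%. The groups did not overlap for 18 members that were lower, where 13% of all tested genes were lower without overlap. For 3 members that were higher the groups did not overlap either, where the background was 11.6%. TwdlB and TwdlH, whose lower value was set by the filter, are among the 49, the 23, the 20 and the 18. Both also enter the median of the 75. The size of the median, though not its direction, depended on 1 library. Without control knockdown replicate 1 the median was -0.37, beside 0.0022 over all genes in that fit, with 49 of 71 members negative.

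**Figure D2:**
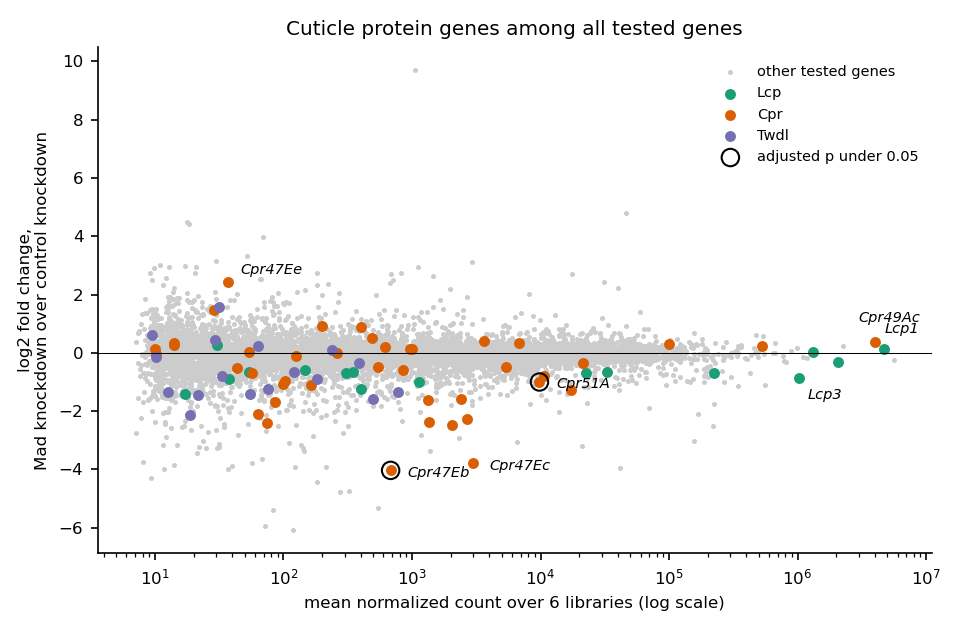
Log2 fold change of Mad knockdown over control knockdown against the mean normalized count over 6 libraries (log axis) for the 75 tested members, coloured by family, over all other tested genes in grey. The circled genes Cpr47Eb (-4.03) and Cpr51A (-1.0) are the 2 members past the adjusted threshold, and the most abundant member, Lcp1, lies near 0 (0.12).

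Cpr47Eb, which encodes a protein of the chitin-binding Cpr family, had the most negative log2 fold change of the tested members. By the ratio of group means Cpr47Ec and Cpr78Cc were lower still, which rests on control knockdown replicate 1. The normalized counts of Cpr47Eb were 57.9, 77.1 and 102 in Mad knockdown replicates 1, 2 and 3, against 1193, 1515 and 1147 in control knockdown replicates 1, 2 and 3. The 3 Mad knockdown libraries lay close together and all far below the 3 control libraries. The means were 78.9 ± 21.9 in Mad knockdown libraries, against 1285 ± 201 in control libraries (SD, n = 3 each), a 16.3-fold lower level. The log2 fold change was -4.03 (standard error 0.224), with an adjusted p of 0.00108 in limma. The call held in each of the 18 alternatives tried, with log2 fold changes from -4.23 to -3.83 and adjusted p-values up to 0.0190. The gene (FBgn0033598) lies on chromosome 2R, 11255167 to 11255983 (dm6 coordinates), within a row of 7 Cpr47E genes. Of the 13 other genes of the table that reached within 15000 bases of it, 10 were tested and none was called.

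Cpr51A, another Cpr gene, was also lower. It had normalized counts of 7216, 6109 and 6301 in Mad knockdown replicates 1, 2 and 3, against 12656, 12085 and 14533 in control knockdown replicates 1, 2 and 3. No Mad knockdown library reached the lowest control library. The means were 6542 ± 591 in Mad knockdown libraries, against 13091 ± 1280.3 in control libraries (SD, n = 3 each), and the log2 fold change was -1.0 (standard error 0.0967), with an adjusted p of 0.00758 in limma. All 18 alternatives kept the call, at log2 fold changes from -1.07 to -0.92 and adjusted p-values up to 0.0389. Cpr51A (FBgn0033942) lies on chromosome 2R, 14512559 to 14515211, on the minus strand. An intron of it holds CG30197 (FBgn0050197, 14514030 to 14514992), a gene of the plus strand that shares no exon base with it.

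CG30197 changed in the opposite direction. Its normalized counts were 20396, 16578 and 16140.3 in Mad knockdown replicates 1, 2 and 3, against 9075, 9410.0 and 11468 in control knockdown replicates 1, 2 and 3. The groups did not overlap here either, with the Mad knockdown libraries above the control libraries. The log2 fold change was 0.83 (standard error 0.126), with an adjusted p of 0.029 in limma. It was called in 11 of 18 alternatives, with log2 fold changes from 0.72 to 0.93 and adjusted p-values up to 0.112; leaving out any 1 library but control knockdown replicate 3 ended the call. The sum of the 2 genes was 27613, 22687 and 22442 in Mad knockdown libraries, against 21731, 21495 and 26000.5 in control libraries, and these sums overlapped. The sources used here do not say whether counting used strand. In a count over exons, reads of CG30197 would not enter Cpr51A, since no exon base is shared. Intron reads of Cpr51A that lie on exons of CG30197 could enter CG30197 in a count without strand. The part of read assignment in either change was not tested.

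**Figure D3:**
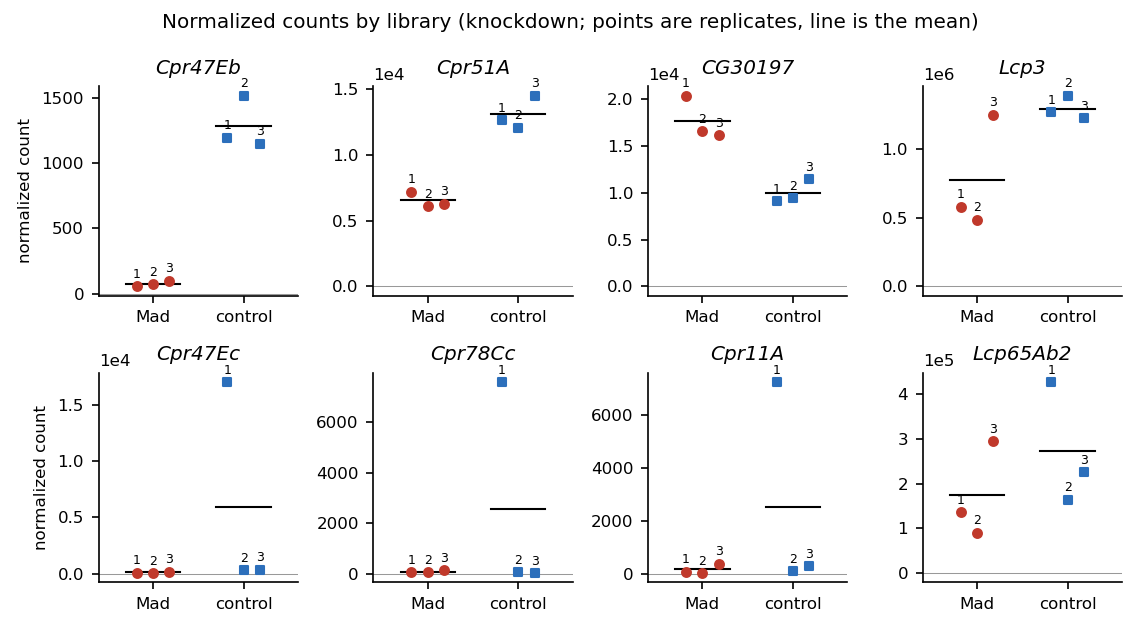
Normalized counts per library (linear axes) of 7 members and of CG30197, the gene within an intron of Cpr51A, with Mad knockdown on the left and control knockdown on the right of each panel; numbers are replicates and the line is the group mean. Cpr47Eb, Cpr51A and CG30197 separate the groups, Lcp3 is low in Mad knockdown replicates 1 and 2 but not in 3, and control knockdown replicate 1 alone is high for Cpr47Ec, Cpr78Cc and Cpr11A.

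The major larval cuticle genes Lcp1 to Lcp4 lie in 1 row on chromosome 2R (8430115 to 8438495) with the pseudogene Lcp1Psi. None of the 5 was called. Lcp1 had normalized counts of 5161974, 4334664 and 5222688 in Mad knockdown replicates 1, 2 and 3, against 3622128, 5255165 and 4801216 in control knockdown replicates 1, 2 and 3. The libraries of both groups interleaved, and its log2 fold change was 0.12 (standard error 0.318). Lcp2 had 1401872, 1067726 and 1507525 in Mad knockdown replicates 1, 2 and 3, against 1138374, 1413901 and 1356686 in control knockdown replicates 1, 2 and 3, with a log2 fold change of 0.016 (standard error 0.217) and overlapping groups. For these 2 genes the direction turned when 1 library was left out, and their adjusted p-values in limma were 0.892 and 0.98.

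Lcp3 and Lcp4 were more uneven. Lcp3 had 580556, 485603 and 1253209.7 in Mad knockdown replicates 1, 2 and 3, against 1268586, 1392277 and 1228625 in control knockdown replicates 1, 2 and 3. Mad knockdown replicates 1 and 2 were far below every control library, while Mad knockdown replicate 3 lay within the control range. Its log2 fold change was -0.87 (standard error 0.359), with an adjusted p of 0.256 in limma. Without Mad knockdown replicate 3 the log2 fold change was -1.29 and the adjusted p 0.0409. This was the only call in the 6 fits that left out 1 library, where adjusted p-values in limma reached 0.495. Lcp4 had 1882236, 1362638 and 2377759 in Mad knockdown replicates 1, 2 and 3, against 2010597, 2469054 and 2365436 in control knockdown replicates 1, 2 and 3, a log2 fold change of -0.32 (standard error 0.278) and an adjusted p of 0.605 in limma. Without Mad knockdown replicate 2 it was -0.10. The ratio of Lcp3 to Lcp4 within a library was 0.308, 0.356 and 0.527 in Mad knockdown libraries, against 0.631, 0.564 and 0.519 in control libraries, and Mad knockdown replicate 3 lay inside the control range of 0.519 to 0.631. The ratio of Lcp1 to Lcp2 was 3.68, 4.06 and 3.46 in Mad knockdown libraries, against 3.18, 3.72 and 3.54 in control libraries, with overlapping groups. The summed signal of all 17 Lcp genes was 9199498, 7365470.0 and 10724683 in Mad knockdown libraries, against 8592379, 10736207 and 10027041 in control libraries, and the groups overlapped.

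A second row, on chromosome 3L from 6130386 to 6161589, holds 18 members with Lcp65A and Cpr65A names, and 16 of them were tested. The log2 fold change was negative for 15 of the 16, with a median of -0.85, and none was called. At an unadjusted p under 0.05 were 6, and the groups did not overlap for 5 genes that were lower (backgrounds for lower genes, 10.7% and 13%). Lcp65Ab2, the most abundant gene of this row, had normalized counts of 136175, 90205 and 294771 in Mad knockdown replicates 1, 2 and 3, against 427763, 163879 and 225185 in control knockdown replicates 1, 2 and 3. Control knockdown replicate 1 was the highest library and Mad knockdown replicate 2 the lowest. Its log2 fold change was -0.71 (standard error 0.507), with an adjusted p of 0.522 in limma. Without control knockdown replicate 1, and also without Mad knockdown replicate 2, it was -0.32, and without Mad knockdown replicate 3 it was -1.18. Control knockdown replicate 1 was the highest library for 13 of the 16 genes, and Mad knockdown replicate 2 the lowest for 11 (16.9% and 20.4% of all tested genes). Lcp65Ag1 had 653, 844 and 688 in Mad knockdown libraries, against 2074, 1595 and 919 in control libraries, without overlap. Its log2 fold change was -1.0 (standard error 0.289) with an adjusted p of 0.131 in limma, and -1.33 with 0.0465 when control knockdown replicate 3 was left out. Of the 6 fits that left out 1 library only that 1 called it, with adjusted p-values in limma up to 0.296.

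Within this row Cpr65Av and Cpr65Au had the most negative values. Cpr65Av had 303, 172 and 1005 in Mad knockdown replicates 1, 2 and 3, against 8395, 608 and 1736 in control knockdown replicates 1, 2 and 3. Mad knockdown replicate 3 was above control knockdown replicate 2, so the groups overlapped. The log2 fold change was -2.46 (standard error 1.03), and -1.45 without control knockdown replicate 1. Cpr65Au had 35.5, 7.25 and 36.3 in Mad knockdown replicates 1, 2 and 3, against 95.2, 173 and 103 in control knockdown replicates 1, 2 and 3, with no overlap, a log2 fold change of -2.42 (standard error 0.625) and an adjusted p of 0.0992 in limma. The annotation places the antisense RNA CR46005 over 93.3% of the exon bases of Cpr65Au and over all those of Lcp65Ag3. Without a stated strand setting, reads of these genes and of that RNA cannot be told apart.

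Several members of this row are numbered copies, such as Lcp65Ab1 and Lcp65Ab2, and reads may be split between copies by the authors' counting, so their separate levels are uncertain. Lcp65Ab2 stood to Lcp65Ab1 in a ratio of 6.72, 6.48 and 6.75 in Mad knockdown libraries, against 6.9, 7.07 and 6.85 in control libraries. This ratio moved little while the level of either gene moved over 4-fold between libraries. Lcp65Ag1 stood to Lcp65Ag2 at 3.13, 3.72 and 2.71 in Mad knockdown libraries, against 3.67, 4.52 and 3.72 in control libraries. Cpr65Ax2 stood to Cpr65Ax1 at 4.17, 5.57 and 4.2 in Mad knockdown libraries, against 2.16, 3.09 and 4.14 in control libraries, the lowest ratio being that of control knockdown replicate 1. Elsewhere on 3L, Cpr67Fa2 stood to Cpr67Fa1 at 137, 90.7 and 24.8 in Mad knockdown libraries, against 2.79, 16.4 and 22.3 in control libraries, so these 2 copies did not vary together.

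The Cpr49A row on chromosome 2R (12376626 to 12415170) did not share that direction. Of its 8 genes, all tested and none called, 6 had a positive log2 fold change and 2 a negative one, with a median of 0.13. Cpr49Ac, which held most of the signal of the Cpr family, had 4675008, 5036569 and 3841758 in Mad knockdown replicates 1, 2 and 3, against 3616955, 3418310.5 and 3462910.3 in control knockdown replicates 1, 2 and 3. All 3 Mad knockdown libraries were above all 3 control libraries. The log2 fold change was 0.36 (standard error 0.281), with an adjusted p of 0.559 in limma and of 0.0247 in DESeq2. With quantile normalization in limma the log2 fold change was 0.097. In the same row Cpr49Ah had 938, 654 and 2533 in Mad knockdown replicates 1, 2 and 3, against 3773, 3551 and 3103 in control knockdown replicates 1, 2 and 3, with no overlap and a log2 fold change of -1.58 (standard error 0.46). Its adjusted p in limma was 0.134 over all 6 libraries and 0.0141 without Mad knockdown replicate 3. Among the 6 fits that left out 1 library only that 1 called Cpr49Ah, with adjusted p-values in limma up to 0.285. The summed signal of the 70 Cpr genes was 5468038, 5714542 and 4608147 in Mad knockdown libraries, against 4286607, 4145846 and 4148354 in control libraries, with the Mad knockdown libraries above the control libraries, and Cpr49Ac supplied most of it.

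Of the other abundant Cpr genes besides Cpr51A, Cpr78E had 627397, 501027 and 565386 in Mad knockdown libraries, against 419646, 534398 and 499584 in control libraries, with a log2 fold change of 0.22 (standard error 0.159). Cpr67B had 94615, 116576 and 124623 in Mad knockdown libraries, against 79568, 100684 and 88922 in control libraries, with a log2 fold change of 0.32 (standard error 0.138). For both genes the groups overlapped. Cpr12A had 23369, 17083 and 15781 in Mad knockdown libraries, against 27246, 23397 and 20717 in control libraries, with a log2 fold change of -0.36 (standard error 0.168), again with overlap. Cpr60D had 8827, 5628 and 17954 in Mad knockdown libraries, against 28904, 20386 and 21208 in control libraries, without overlap. Its log2 fold change was -1.27 (standard error 0.400) with an adjusted p of 0.16 in limma, and -1.72 with 0.0396 when Mad knockdown replicate 3 was left out. Only that 1 of the 6 fits that left out 1 library called it, with adjusted p-values in limma up to 0.318.

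The 5 tested members with the most positive fold changes had mean normalized counts from 28.9 (Cpr64Ad) to 402 (Cpr97Ea). Cpr65Ec had 251, 217 and 310.1 in Mad knockdown replicates 1, 2 and 3, against 139, 162 and 108 in control knockdown replicates 1, 2 and 3. The Mad knockdown libraries were above all control libraries, and the log2 fold change was 0.92 (standard error 0.208) with an adjusted p of 0.0744 in limma. Cpr64Ad had 17.7, 58 and 55.4 in Mad knockdown libraries, against 9.76, 20.8 and 11.8 in control libraries, with a log2 fold change of 1.46. Cpr97Ea had 83.1, 1019 and 579 in Mad knockdown libraries, against 167, 103 and 460.3 in control libraries, with a log2 fold change of 0.88 that ran from 0.14 without Mad knockdown replicate 2 to 1.94 without Mad knockdown replicate 1. Cpr47Ee had 13.1, 3.63 and 187 in Mad knockdown libraries, against 4.88, 12.5 and 0 in control libraries, and its value of 2.42 rests on Mad knockdown replicate 3. TwdlX had 6.5, 121 and 33.2 in Mad knockdown libraries, against 8.54, 11.4 and 9.12 in control libraries, where Mad knockdown replicate 2 stood apart, and its value was 1.57. The adjusted p-values of the last 4 genes in limma ran from 0.222 to 0.694.

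Tweedle genes were low in these libraries, and the normalized counts of all 26 summed to 1263, 2239.9 and 2098 in Mad knockdown libraries, against 2581, 3225 and 4079 in control libraries. The Mad knockdown libraries were all below the control libraries in that sum. Of the 26 genes 17 were tested and none was called, 12 had a negative log2 fold change, and the family's median was -0.78. TwdlB and TwdlH, which passed the filter only through the control libraries, are among the 12. TwdlN, the most abundant, had 206, 585 and 598 in Mad knockdown replicates 1, 2 and 3, against 785, 1006 and 1487 in control knockdown replicates 1, 2 and 3. Its groups did not overlap, and its log2 fold change was -1.34 (standard error 0.449) with an adjusted p of 0.181 in limma and 0.0139 in DESeq2. TwdlO had 72.9, 422 and 376 in Mad knockdown libraries, against 467, 754 and 881 in control libraries, also without overlap, with a log2 fold change of -1.58 (standard error 0.67). Mad knockdown replicate 1 was by far the lowest library for TwdlO, and without it the log2 fold change was -0.77 for TwdlO and -0.83 for TwdlN.

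Both genes lie in a row of 12 Tweedle genes on chromosome 3R (26619118 to 26641054), which includes TwdlM. In this row 9 of the 10 tested genes had a negative log2 fold change, with a median of -1.35, and 5 were lower with no overlap between the groups, where 13% of all tested genes were. TwdlB and TwdlH, which passed the filter only through the control libraries, are among these 9 and these 5. Control knockdown replicate 3 was the highest library for 8 of the 10, and Mad knockdown replicate 1 the lowest for 7, where these shares were 15.7% and 17.9% over all tested genes. TwdlM had 59.8, 164 and 159 in Mad knockdown libraries, against 143, 197 and 364 in control libraries, with overlapping groups and a log2 fold change of -0.90 (standard error 0.492), or -0.42 without Mad knockdown replicate 1 and -0.52 without control knockdown replicate 3. The summed signal of the row was 404, 1324 and 1281 in Mad knockdown libraries, against 1585, 2218 and 3134 in control libraries. Of the 5 most abundant Tweedle genes, 2 lie elsewhere. TwdlU, annotated as a pseudogene, had 315, 346 and 361 in Mad knockdown libraries, against 389, 491 and 418 in control libraries, with a log2 fold change of -0.34 (standard error 0.124). TwdlG had 292, 214 and 223 in Mad knockdown libraries, against 156, 289 and 245 in control libraries, with overlapping groups and a log2 fold change of 0.11 (standard error 0.254), whose direction turned when 1 library was left out.

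The 7 Ccp84A genes, in a row on chromosome 3R from 6686728 to 6704903, were barely detected. No library held more than 16 counts of any of them, Ccp84Ac was at 0 in all 6 libraries, and none passed the filter. The family summed to 11.2, 27.2 and 18.1 in Mad knockdown libraries, against 14.6, 15.6 and 30.1 in control libraries. Ccp84Ag was the highest, with 7.47, 14.5 and 7.05 in Mad knockdown libraries, against 2.44, 6.24 and 3.65 in control libraries. Ccp84Ad had 1.87, 1.81 and 9.06 in Mad knockdown libraries, against 7.32, 3.12 and 0 in control libraries. At these few counts the Mad knockdown libraries lay above the control libraries for Ccp84Ag and among them for Ccp84Ad. Ccp84Af had 1.87, 0 and 0 in Mad knockdown libraries, against 4.88, 4.16 and 5.47 in control libraries. Ccp84Ae had 0, 9.07 and 0 in Mad knockdown libraries, against 0, 0 and 5.47 in control libraries, and Ccp84Ab had 0, 0 and 0 in Mad knockdown libraries, against 0, 2.08 and 12.8 in control libraries. These genes were too low for a test at this depth.

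**Figure D4:**
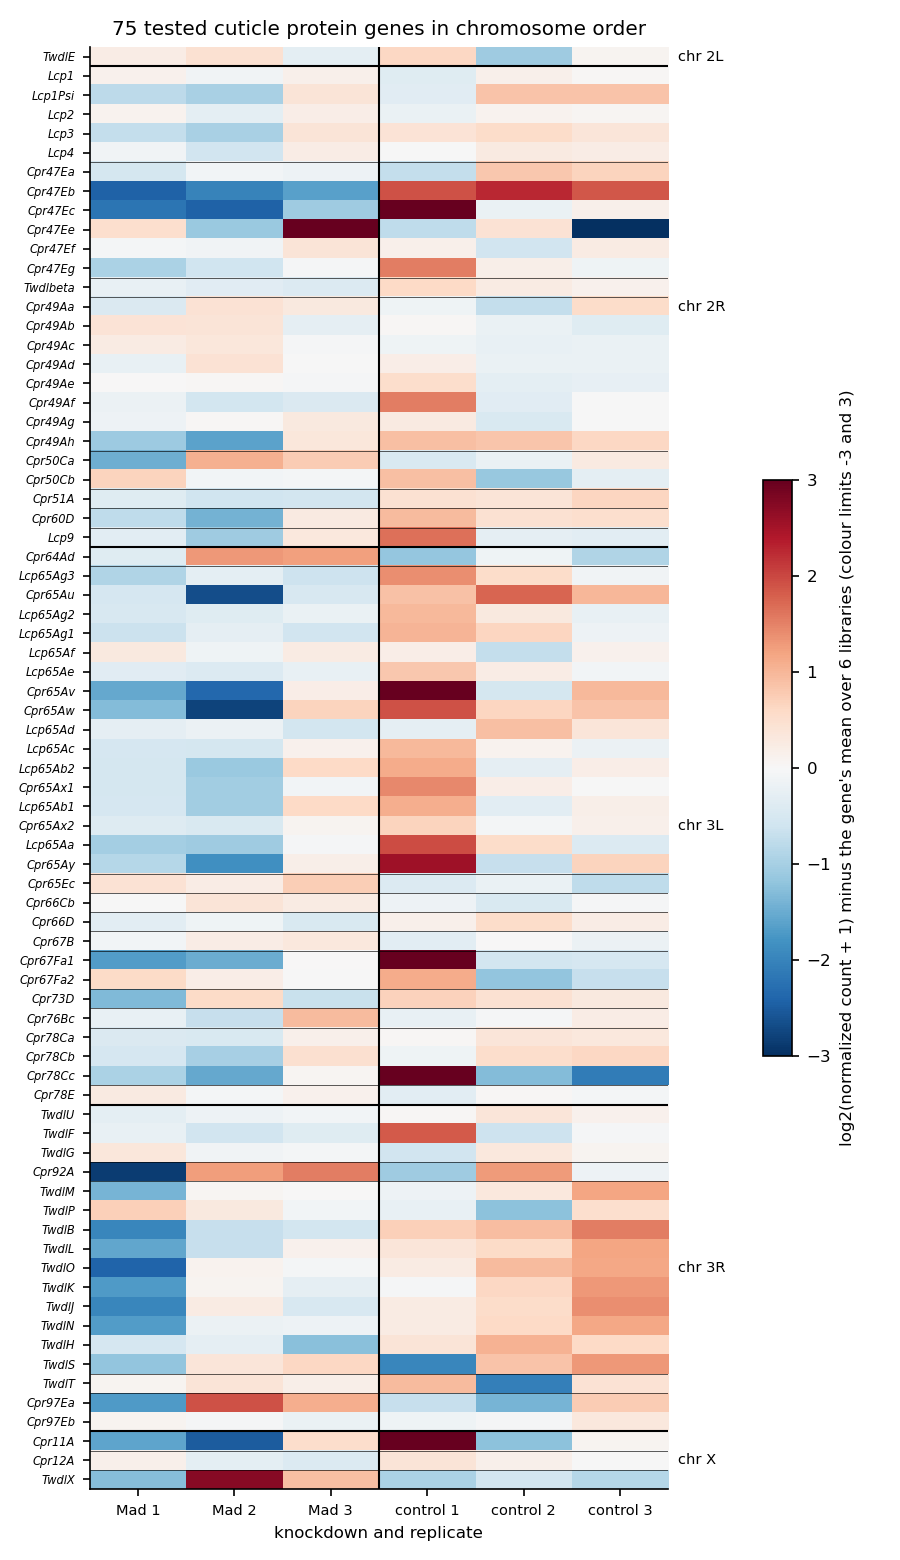
Deviation of log2(normalized count + 1) from the gene's mean over 6 libraries for the 75 tested members in chromosome order, Mad knockdown libraries left of the line and control libraries right of it; thin lines part groups of neighbours, thick lines chromosomes, and colours saturate at -3 and 3. Neighbours of the Lcp65A and Tweedle rows share their pattern over libraries, with control knockdown replicate 1 highest for 13 of 16 tested genes of the first and replicate 3 highest for 8 of 10 of the second.

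A single control library carried the largest values of many members. Control knockdown replicate 1 was the highest of the 6 libraries for 31 of the 75 tested members, 41.3%, where it was highest for 16.9% of all tested genes. It was over 2 times every other library for 13 members, where 0.85% of all tested genes were, and over 5 times for 4 members, where 0.213% were. Cpr47Ec had 68.2, 58 and 152 in Mad knockdown replicates 1, 2 and 3, against 17042, 277 and 351 in control knockdown replicates 1, 2 and 3. Apart from that library its values stayed between 58.04 and 351. Cpr78Cc had 69.1, 46.2 and 141 in Mad knockdown replicates 1, 2 and 3, against 7599.7, 54.1 and 31 in control knockdown replicates 1, 2 and 3. Cpr11A had 91.5, 48.1 and 399 in Mad knockdown replicates 1, 2 and 3, against 7260.5, 116 and 292 in control knockdown replicates 1, 2 and 3. In both the library stood over 10 times above every other. The fourth gene, Cpr67Fa1, had 4.67, 5.44 and 17.1 in Mad knockdown replicates 1, 2 and 3, against 332, 11.4 and 11.8 in control knockdown replicates 1, 2 and 3.

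The fold changes of these genes depended on that library to differing degrees. Cpr47Ec had a log2 fold change of -3.79 (standard error 1.53) with an adjusted p of 0.248 in limma, and -1.87 without control knockdown replicate 1. Its groups did not overlap, with or without that library. Cpr11A had -2.37 (standard error 1.56), and -0.60 without that library. Cpr67Fa1 had -2.11 (standard error 1.32), and -0.54 without it. Cpr78Cc had -1.61 (standard error 1.98), and 0.89 without it. Cuticle genes whose symbols the name rule did not match were mixed in that library. Edg78E was high there, with 67.3, 49.9 and 57.4 in Mad knockdown replicates 1, 2 and 3, against 595, 75.9 and 54.7 in control knockdown replicates 1, 2 and 3. Vajk2 was also highest in control knockdown replicate 1, at 27835. Others, such as m (39.0), zye (240854) and Vajk1 (462), were at their lowest of the 6 libraries in it. The summed muscle markers were also highest there, at 4574764. The summed epidermis markers, at 1662604, were within the range of the other 5 libraries, but most of that sum came from ple and Ddc. The part of these markers in the pattern was not tested.

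Replicates differed among the Mad knockdown libraries as well. Mad knockdown replicate 3 was above replicates 1 and 2 for 40 of the 75 tested members, 53.3%, where this held for 32.3% of all tested genes. Mad knockdown replicate 2 was the lowest of the 6 libraries for 25 members and replicate 1 for 20, 33.3% and 26.7%, beside 20.4% and 17.9% of all tested genes. Over the 59 members present in every library, the highest library was a median of 3.18 times the lowest, where the median was 1.36 for the 9458 genes of the whole table present at 10 or more in every library. Among the most even were the abundant Lcp2 at 1.41 times and Lcp1 at 1.45 times, but also the low gene Cpr97Eb at 1.44 times, while the abundant Lcp3 stood at 2.87 times and Lcp65Ab2 at 4.74 times. At the other end stood Cpr47Ec at 294 times and Cpr78Cc at 245 times.

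Other genes of cuticle formation were read from 4 lists. Of 18 tested cuticle and apical matrix genes whose symbols the name rule did not match, 1 was called. Families were told by symbol alone, so genes of this list may share a protein class with the members. The called gene was neo, which encodes a zona pellucida domain protein of the apical matrix. It had 1473, 1283 and 1412 in Mad knockdown libraries, against 951, 769.7 and 961 in control libraries, a log2 fold change of 0.64 (standard error 0.112) and an adjusted p of 0.0409 in limma, and it lost the call when any 1 library was left out. The largest value in that list was that of m (miniature), another such gene, at 1.71 with an adjusted p of 0.0671 in limma. Pcp, a pupal cuticle protein gene, was abundant, with 264135, 288395 and 215093 in Mad knockdown libraries, against 205944, 222579.7 and 177881 in control libraries, and its log2 fold change was 0.34. Edg84A was at 0 in every library.

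Of 22 tested chitin genes none was called, 15 had a negative and 7 a positive log2 fold change, and the median was -0.12. The chitin synthase gene kkv had 35504, 32848 and 40515 in Mad knockdown libraries, against 36421, 40230.0 and 42940.4 in control libraries. The largest value was that of verm, which encodes a chitin deacetylase, with 7283, 5398 and 13864 in Mad knockdown libraries, against 35786, 14042 and 20553 in control libraries, a log2 fold change of -1.41 (standard error 0.437) and an adjusted p of 0.154 in limma. Of 19 tested genes of tanning and pigment, 1 was called, yellow-h, which had 614, 718 and 613 in Mad knockdown libraries, against 1275, 1161 and 1179 in control libraries, a log2 fold change of -0.90 (standard error 0.0943) and an adjusted p of 0.00986 in limma, with 0.0542 when control knockdown replicate 2 was left out. The largest value was that of y, the gene of black pigment, with 0, 1.81 and 4.03 in Mad knockdown libraries, against 17.1, 29.1 and 17.3 in control libraries, and a log2 fold change of -3.15. This gene passed the filter only through the control libraries, which set its direction. Of 21 tested genes of the moulting hormone response none was called, 14 had a positive and 7 a negative value, and the largest was that of ImpE2, with 698, 1215 and 5456 in Mad knockdown libraries, against 46.4, 541 and 758 in control libraries and a log2 fold change of 2.63 (standard error 1.2), or 1.38 without control knockdown replicate 1. The medians of these lists ran from -0.15 to 0.14, beside 0.0054 over all tested genes.

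Gene structure and position were read from the annotation, in which all 120 members were found. Of these, 117 are annotated as protein-coding and 3 as pseudogenes (Lcp1Psi, Lcp65APsi and TwdlU). The protein-coding members are short, with a median of 858 exon bases beside 1734 for the 13883 protein-coding genes of the table. They have few exons: 60.7% of them have 2 separate exon blocks, against 20.8% of all protein-coding genes. By chromosome arm, 46 members lie on 3L, 32 on 3R, 28 on 2R, 8 on X and 6 on 2L. Of the members, 88 lie in 15 rows of 3 or more with gaps of at most 20000 bases. Expression was uneven along the genome, with 25 of the 28 members on 2R passing the filter, against 29 of 46 on 3L, 17 of 32 on 3R, 3 of 8 on X and 1 of 6 on 2L. Exons of another gene overlap those of 9 members, 6 of them tested, and the overlap covers 71.9% of the exon bases of TwdlE.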

How the data were processed

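RNA was extracted with Trizol and polyadenylated RNA was selected with oligo-dT before a paired-end run, per the labels' protocols. The genome build was dm6, per the submitters' processing notes. The aligner, counter, annotation and strand setting are not given in the sources used here. The deposited signal was 1 table of normalized counts with 1 column per library and no pooling by the authors. Every value was a whole multiple of 1 step per library (100% of values within 0.001), and the inverse of the step equalled the median-of-ratios size factor recomputed from the whole counts. The factors ran from 0.820 to 1.10.

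The test used log2(normalized count + 1) of the 10348 genes with at least 10 normalized counts in at least 3 of 6 libraries. limma 3.58.1 in R 4.3.3 was run with lmFit and eBayes with a trend, without covariates, two-sided, and calls were made at an adjusted p under 0.05 (Benjamini-Hochberg over all these genes). Fold changes on this scale understate those of low genes. The procedure was tested on simulated data in which all genes shared a single dispersion, so the wider spread of the cuticle protein genes was not modelled. As alternatives, recovered counts were tested in edgeR 4.0.16 and DESeq2 1.42.0. Levels per kilobase divide by the exon bases of the Ensembl 115 annotation of BDGP 6.54, whose coordinates are those of dm6.

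The members and lists were chosen with earlier results of these data known. Named members were the 5 most abundant of each family, the called ones and, at each end of the fold changes, the 5 most extreme, 31 in all. Of each other list the called genes and the one with the largest change were named. Other genes were named after their values were seen. The marker lists for trachea, fat body, blood cells and imaginal discs held 8, 8, 8 and 9 tested genes, of which 1, en of the discs, was called (higher), a call that ended when any 1 library was left out. Their median log2 fold changes were 0.085, 0.055, -0.11 and 0.57. Alternatives were 2 pseudocounts, 2 filters, 3 scalings, 2 variance models, 2 count tests, a replicate block and leaving out each library.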

Additional observations from a re-analysis of the deposited data

How the results depend on the processing

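Cpr47Eb and Cpr51A were called under all 18 alternatives. The number of called members was 2 under each alternative but 3: DESeq2 called 10, limma without Mad knockdown replicate 3 called 5 and limma without control knockdown replicate 3 called 3. The fits that left out 1 library called from 2 to 5 members. Over all genes limma called 268 (106 higher, 162 lower), against 138 (51 and 87) without a trend and 117 (47 and 70) with the replicate number as a block, and DESeq2 called 998 (391 and 607). Leaving out 1 library gave from 43 to 193 called genes, in fits that used fewer libraries. The median log2 fold change of the members ran from -0.75 to -0.37 in those fits, the value nearest 0 being that without control knockdown replicate 1, and from -0.64 to -0.58 under other scalings. The Cpr median was -0.42, and -0.076 with no filter, where 67 Cpr genes entered. With 1 library left out, values ran from -0.039 to 0.23 for Lcp1, from -0.085 to 0.16 for Lcp2 and from -0.15 to 0.30 for TwdlG (log2 fold changes), so their directions turned. So did those of Cpr78Cc, with values from -3.06 to 0.89, and of ple, with values from -0.84 to 0.28, at their highest without control knockdown replicate 1 for Cpr78Cc and without Mad knockdown replicate 1 for ple. The cause was not tested. Same-numbered libraries had deviations correlated at -0.14, -0.066 and 0.037 in replicates 1, 2 and 3, so the numbers were not taken as pairs, and with the replicate block 2 members were called, the same 2 genes. With some libraries left out Cpr47Ee and TwdlX did not pass the filter, nor did these 2 and Cpr64Ad reach a mean of 50 counts, and they have no value there. Low counts kept 45 members out of the test. Of these, 14 members had 3 or fewer counts in every library, which allow no fold.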

Other observations

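Some tanning genes of the epidermis varied widely between libraries of 1 group. The gene e (ebony), whose product joins beta-alanine to dopamine for pale cuticle, had normalized counts of 2275, 379035 and 68389.7 in Mad knockdown replicates 1, 2 and 3, against 309864, 131658 and 114951 in control knockdown replicates 1, 2 and 3. Its lowest and highest libraries were both Mad knockdown libraries, and its log2 fold change of -2.10 (standard error 1.72) had an adjusted p of 0.575 in limma. Without Mad knockdown replicate 1 it was -0.056, and without Mad knockdown replicate 2 it was -3.75. The gene ple, which encodes the tyrosine hydroxylase that starts dopamine synthesis, had 281292, 1328851 and 734895 in Mad knockdown replicates 1, 2 and 3, against 1121245, 559854 and 863259.8 in control knockdown replicates 1, 2 and 3, again with Mad knockdown replicate 1 lowest and replicate 2 highest. Ddc, which encodes the next enzyme of that route, was even, with 373473, 419099 and 342299.9 in Mad knockdown libraries, against 371111, 290689 and 327610.2 in control libraries. No explanation of these values was tested.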
